A study of Mus musculus with 6 samples.

Results

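A set of 10 neutrophil genes, chosen by name, was followed across liver RNA libraries from mice that lacked telomerase RNA and Wrn, with or without p21. They are S100a8, S100a9, Retnlg, Chil3, Ngp, Camp, Ltf, Lcn2, Cxcr2 and Csf3r, and all 10 were found, once each, among the 55573 genes of the deposited table. The mice were of generation 3. The control group, labelled DKO, had the genotype mTR-/-Wrn-/-, where mTR (Terc) encodes the RNA template of telomerase and Wrn encodes a RecQ helicase. The other group, labelled p21TKO, had the genotype p21-/-mTR-/-Wrn-/-, so it shared both deletions of the controls and also lacked p21 (Cdkn1a), an inhibitor of cyclin-dependent kinases. The feed was normal in both groups, and each group had 3 polyA RNA libraries of liver. The sample titles also carry the mark 2M, whose meaning the labels do not give, and no label states an age. Whether the replicates are different mice is also unstated, and the p-values cover only the variation among these libraries, which may be technical. By its design text, the study asked what losing p21 does to gene pathways in this background.

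Neutrophils are short-lived white blood cells that are made in the bone marrow under the cytokine G-CSF and enter tissues during inflammation. Their granule proteins are made in sequence: azurophil granule proteins in early precursors, specific granule proteins in later precursors, gelatinase granule proteins later still, and surface receptors on the mature cell. S100A8 and S100A9 form calprotectin, the most abundant cytosolic protein pair of the mature neutrophil, which binds calcium, zinc and manganese. In the liver, neutrophils pass through the sinusoids and gather after injury or infection. Hepatocytes themselves make lipocalin-2 (Lcn2) when stimulated by cytokines, so that gene is not specific to neutrophils, and macrophages can make Chil3.

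The FPKM denominators (reads per library) lay between 19363284 and 27061290 reads. Albumin (Alb) stood at 24412 to 37503 FPKM, the level of a liver library. Cdkn1a was not lower in the libraries labelled p21TKO: it stood at 0.76, 1.79 and 0.41 FPKM in DKO replicates 1 to 3 and at 1.41, 11.05 and 6.50 FPKM in p21TKO replicates 1 to 3. Which part of Cdkn1a was deleted is unknown here, so reads outside it would check nothing, and p21TKO names a label throughout. Reads of the Y-linked gene Ddx3y were found in DKO replicates 2 and 3 and p21TKO replicate 1 (1264 to 1312 reads) and in none of the other 3 libraries. The labels give no sex, and the groups differed in this respect. Libraries labelled p21TKO did not form 1 group for the genes described here: replicates 2 and 3 stood apart from replicate 1. Calls that change without replicate 1 are given beside the genes or lists they concern. That library was singled out by its values for these same genes. The adjusted p-values without it therefore show how far the calls depend on it and are not separate evidence of a group difference. When any other library was left out instead, 0 genes of the set and 0 genes of the other lists were called.

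The label of a neutrophil set was checked against other genes that define the cell. Some transcripts of the mature neutrophil were present, with few reads in most libraries. The formyl peptide receptor gene Fpr2 had 8, 7 and 2 reads in the controls and 6, 150 and 89 reads in p21TKO replicates 1 to 3. These were 0.0694 to 0.257 FPKM in the controls and 0.239, 5.04 and 2.54 FPKM in p21TKO. Among other surface genes, Trem3 had 0 reads in all 6 libraries and Trem1 at most 1 read in any. The surface marker gene Ly6g was near the limit of detection, with 0 or 1 read in each DKO library and 2, 28 and 2 reads in p21TKO replicates 1 to 3. Azurophil granule genes were mixed: Prtn3 stood at up to 29.9 FPKM, whereas Mpo, the myeloperoxidase gene, had 1 to 6 reads in the DKO libraries and 1, 19 and 29 reads in p21TKO replicates 1 to 3. Among the 10 genes, only Lcn2 was lowest in p21TKO replicate 1. The order of libraries also varied among the other 9, so the set was not uniform.

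The upstream sequences of 4 genes are shown, those of the calprotectin pair and of Ngp and Ltf, because C/EBP and PU.1 proteins are known to act on promoters of granulocyte genes. The sequences are from RefSeq (GRCm38.p6), on the strand of the gene, and leave out any bases annotated as exon. Capitals mark matches to TTGCNNAA, a C/EBP core, or to GAGGAA, a PU.1/ETS core, searched on both strands with no overlap between matches of the different motifs. S100a8 is read from chr3:90668821-90668977 (plus strand), S100a9 from chr3:90695722-90695971 (minus strand), Ngp from chr9:110419558-110419746 (plus strand) and Ltf from chr9:111019042-111019270 (plus strand).
S100a8: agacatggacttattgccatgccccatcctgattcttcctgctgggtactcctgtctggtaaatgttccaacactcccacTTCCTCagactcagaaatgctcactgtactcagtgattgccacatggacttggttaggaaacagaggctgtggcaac
S100a9: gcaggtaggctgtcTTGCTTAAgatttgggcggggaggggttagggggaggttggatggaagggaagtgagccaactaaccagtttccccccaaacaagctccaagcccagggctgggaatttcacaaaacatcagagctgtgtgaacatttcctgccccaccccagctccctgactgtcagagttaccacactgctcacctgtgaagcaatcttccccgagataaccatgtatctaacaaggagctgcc
Ngp: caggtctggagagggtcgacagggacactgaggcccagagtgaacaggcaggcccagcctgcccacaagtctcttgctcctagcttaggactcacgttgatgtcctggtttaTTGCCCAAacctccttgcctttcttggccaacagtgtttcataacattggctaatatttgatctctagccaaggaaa
Ltf: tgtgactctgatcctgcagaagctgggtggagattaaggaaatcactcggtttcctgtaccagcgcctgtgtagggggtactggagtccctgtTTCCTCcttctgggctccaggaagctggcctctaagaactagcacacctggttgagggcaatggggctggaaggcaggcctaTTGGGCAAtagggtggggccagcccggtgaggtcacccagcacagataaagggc
The stretches of Ngp and Ltf hold the same 8 letters on opposite strands (TTGCCCAA and TTGGGCAA). In the 250 bases before the RefSeq start, TTGCNNAA was found for 5 of the 10 genes (S100a9, Retnlg, Ngp, Ltf and Lcn2), against 9.56% of 32851 promoters of the same length. GAGGAA was found for 5 of the 10 (S100a8, Ltf, Lcn2, Cxcr2 and Csf3r), against 23.3% of those promoters. The matches of Lcn2 and Csf3r lay inside the annotated span of these genes, which begins before the RefSeq start. A match describes letters only. Neither motif was in the window of Camp or Chil3.

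S100a8 and S100a9, which encode the subunits of calprotectin, lie 22.6 kb apart on chromosome 3 (S100a8 at 90668978 to 90670035, S100a9 at 90692632 to 90695721, GRCm38). S100a8 stood at 1.56, 8.10 and 3.96 FPKM in DKO replicates 1 to 3 and at 8.04, 182 and 77.5 FPKM in p21TKO replicates 1 to 3. p21TKO replicates 2 and 3 were far above every other library, while p21TKO replicate 1 lay within the DKO range. S100a9 followed the same order of libraries, at 7.10, 16.6 and 7.24 FPKM in the controls and 13.9, 267 and 102 FPKM in p21TKO. These levels were 25.9 and 9.90 times the DKO mean in p21TKO replicates 2 and 3 and 1.34 times in p21TKO replicate 1. S100a8 was below S100a9 per length in every library, and the ratio of S100a8 to S100a9 was 0.22, 0.49 and 0.55 in DKO and 0.58, 0.68 and 0.76 in p21TKO. The ratios did not overlap between groups, but that of DKO replicate 1 rests on 26 reads of S100a8.

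Retnlg, which encodes a resistin-like protein of neutrophils (chromosome 16, 48872621 to 48874496), stood at 0.421, 1.72 and 0.607 FPKM in the controls and 1.31, 51.4 and 28.9 FPKM in p21TKO. Its order of libraries was that of S100a8 and S100a9, with p21TKO replicate 1 again inside the DKO range. Chil3, which encodes the chitinase-like protein Ym1 (chromosome 3, 106147554 to 106167564), was almost unread in the control libraries. It had 0, 2 and 0 reads in the controls and 10, 689 and 238 reads in p21TKO, or 0.316, 18.4 and 5.39 FPKM in the latter. The 0 reads of DKO replicates 1 and 3 allow up to 0.0765 and 0.0827 FPKM, the level of 3 reads, which covers counting error only. Chil3 was therefore higher in every p21TKO library than in every DKO library, although the nearest libraries, p21TKO replicate 1 and DKO replicate 2, had only 10 and 2 reads. Its near-identical relative Chil4 had 0 reads in all 6 libraries, and reads shared between such copies could be divided by the counting.

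The specific granule genes Ngp, Camp and Ltf lie within a stretch of chromosome 9, with 570.1 kb between Camp (109847379 to 109849617) and Ngp (110419747 to 110423012) and 596 kb between Ngp and Ltf (111019271 to 111042767). Ngp, which encodes neutrophilic granule protein, a relative of the cathelicidins, stood at 0.647, 0.570 and 0 FPKM in the controls and 0.380, 30.2 and 6.96 FPKM in p21TKO. Camp, which encodes the cathelicidin precursor of an antimicrobial peptide, had 5, 4 and 0 reads in the controls and 7, 94 and 34 reads in p21TKO. Ltf, which encodes the iron-binding protein lactoferrin, had 8, 1 and 0 reads in the controls and 14, 203 and 18 reads in p21TKO. For Ltf, only p21TKO replicate 2 stood apart: p21TKO replicates 1 and 3 were at 0.210 and 0.193 FPKM against 2.56 FPKM in replicate 2. The absence of reads of all 3 genes in DKO replicate 3 allows up to 0.110 FPKM for Ngp, 0.178 FPKM for Camp and 0.0391 FPKM for Ltf. The groups did not overlap for Camp and Ltf, and they overlapped for Ngp.

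Lcn2, which encodes lipocalin-2, a binder of bacterial iron carriers (chromosome 2, 32384633 to 32388252), had the highest level of the 10 genes in 5 of the 6 libraries. It stood at 60.5, 37.6 and 12.2 FPKM in the controls and 2.38, 1640.2 and 468 FPKM in p21TKO. p21TKO replicate 1 was the lowest library and p21TKO replicate 2 the highest, so the p21TKO values lay on both sides of the controls. Lcn2 made up 49.7% to 85.5% of the summed FPKM of the 10 genes in every library except p21TKO replicate 1, where it made up 8.73%. The ratio of Lcn2 to S100a9 was 8.53, 2.27 and 1.69 in DKO and 0.172, 6.15 and 4.59 in p21TKO. Lcn2 was the 1 gene of the 10 with its lowest value in p21TKO replicate 1, a pattern that 15.5% of 9538 tested genes shared. Among 17 acute phase genes of hepatocytes, 15 were lowest in that library, and Orm2, Hpx and Lbp had the same order of all 6 libraries as Lcn2. The pattern was not particular to hepatocyte genes. That library was also lowest for 9 of 12 Kupffer cell markers and 6 of 8 liver endothelial markers. The order of all 6 libraries was shared as well by Prtn3, the Fc receptor gene Fcgr3 and the Kupffer cell marker C1qb. Orm2, which encodes the acute phase glycoprotein orosomucoid 2, stood at 98.4, 47.0 and 27.0 FPKM in the controls and 7.46, 1068 and 589 FPKM in p21TKO.

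The receptor genes were low in every library. Cxcr2, which encodes the receptor for the chemokines that draw neutrophils (chromosome 1, 74153989 to 74161246), had 4, 33 and 11 reads in the controls and 6, 177 and 67 reads in p21TKO, or 0.102, 2.53 and 0.812 FPKM in the latter. Csf3r, which encodes the receptor for G-CSF (chromosome 4, 126024550 to 126044440), stood at 0.150, 0.927 and 0.387 FPKM in the controls and 0.215, 1.96 and 0.768 FPKM in p21TKO. For Csf3r, p21TKO replicate 3 was below DKO replicate 2, so only p21TKO replicate 2 was above all controls. In p21TKO replicate 2 Csf3r was 4.01 times and Cxcr2 10.5 times the DKO mean, while S100a8 was 40.0 times and Retnlg 56.1 times.

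**Figure D1:**
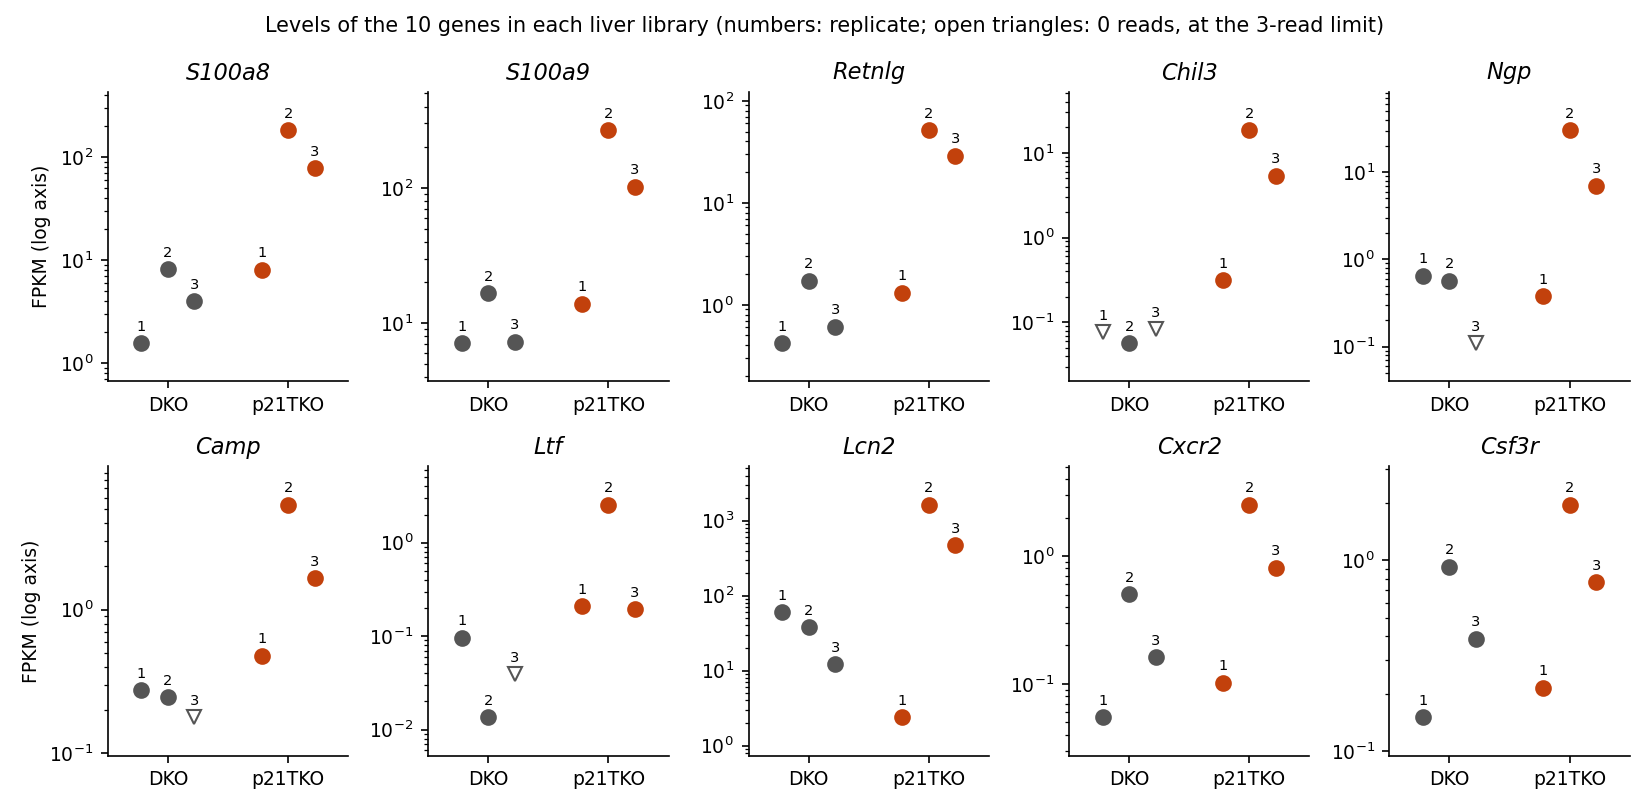
Level of each gene in FPKM on a log axis, with grey points for DKO and orange points for p21TKO and the replicate number above each point; open triangles mark 0 reads and are drawn at the level of 3 reads. p21TKO replicates 2 and 3 are both above the other 4 libraries for 8 of the 10 genes, an order shared by 17.4% of tested genes. The tested genes are those with a mean of at least 1 FPKM. Ltf, Cxcr2 and Csf3r were below that level, and Retnlg, Chil3, Ngp and Camp reached it through the p21TKO libraries. The 2 shares are therefore not comparable. p21TKO replicate 1 is the lowest library for Lcn2.

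With all 6 libraries, none of the 10 genes passed the test between groups. Genes with a mean of at least 1 FPKM were tested on log2(FPKM + 1) with limma, and p-values were adjusted over 9538 genes (Benjamini-Hochberg). Of the 10, 7 were tested, and Ltf, Cxcr2 and Csf3r were below that level (0.513, 0.694 and 0.734 FPKM). Retnlg, Chil3, Ngp and Camp had DKO means below 1 FPKM, so the p21TKO libraries carried them past the filter. Of the 7, 0 were called at an adjusted p under 0.05, where 0.0315% of all tested genes were called higher and 0.0419% lower. At an unadjusted p under 0.05 there were 5 of the 7, where 4.09% of tested genes were higher and 5.29% lower, and limma voom on recovered reads called 0 with 3 at an unadjusted p under 0.05. The log2 difference of S100a8 was 3.38 (SE 1.09, limma adjusted p = 0.523). It was 2.82 for S100a9 (SE 1.0, limma adjusted p = 0.523) and 3.06 for Retnlg (SE 1.10, limma adjusted p = 0.523). Chil3 differed by 2.42 (SE 0.88, limma adjusted p = 0.523), Ngp by 2.35 (SE 1.03, limma adjusted p = 0.526) and Camp by 1.33 (SE 0.50, limma adjusted p = 0.523). Lcn2 differed by 2.12 with an SE of 2.17 (limma adjusted p = 0.736), the widest error of the set. Group means of S100a9 were 10.3 ± 5.42 FPKM in the controls and 128 ± 128 FPKM in p21TKO (SD, n = 3 each), so the spread among the p21TKO libraries equalled their mean.

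Without a filter on low values, the differences of Ltf, Cxcr2 and Csf3r were 0.74, 0.65 and 0.35, with limma adjusted p from 0.700 to 0.744. The median difference over all 10 genes was 2.24, and the median over all genes tested was 0.00157. A log2 difference of at least 2 was reached by 24 genes, 0.252% of those tested. Groups did not overlap for Chil3 and Camp among the 7 tested, where 6.93% of tested genes were higher and 8.49% lower without overlap, and for Ltf besides when no filter was used (5.54% of 24082 genes). Chil3 and Camp passed the filter through the p21TKO libraries, so their direction was set by it. The count among the 7 therefore cannot be weighed against the share of tested genes. The added 1 FPKM makes these log2 differences smaller than the fold changes of genes with low levels.

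Without p21TKO replicate 1, all 7 genes that could be tested were called higher, where 2.43% of 9579 genes were called higher and 2.85% lower. Of these 7, 4 had DKO means below the filter, so their direction was set by it. In that comparison 20.5% of genes were higher and 24.2% lower in both p21TKO libraries than in every DKO library. S100a8 then differed by 4.62 (SE 0.60, limma adjusted p = 0.0156) and Retnlg by 4.43 (SE 0.36, limma adjusted p = 0.00463). Lcn2 moved most, to 4.8 (SE 0.79, limma adjusted p = 0.0267). Camp was nearest the threshold, at 1.82 (SE 0.37, limma adjusted p = 0.0483). Without p21TKO replicate 2, the differences shrank to 2.45 for S100a8, 0.34 for Lcn2 and 0.01 for Csf3r, and 0 of the 6 genes still tested were called (Camp was below the filter). Their limma adjusted p lay between 0.672 and 0.967, with 0 below 0.05 before adjustment. Leaving out p21TKO replicate 3 also gave 0 calls among the 7 (limma adjusted p between 0.935 and 0.982, 0 below 0.05 before adjustment).

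**Figure D2:**
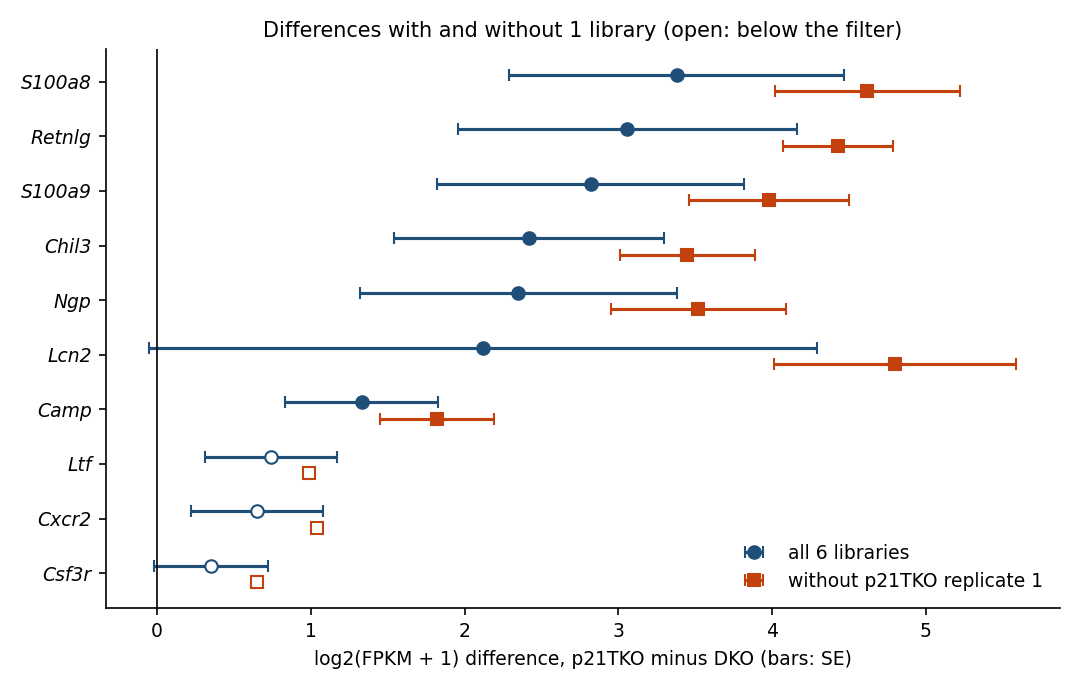
Difference p21TKO minus DKO on the log2(FPKM + 1) scale with its SE, for all 6 libraries (blue circles) and without p21TKO replicate 1 (orange squares); open symbols are genes below the filter, shown without an SE in the second fit. Every difference is larger without that library, and Lcn2 goes from 2.12 to 4.8.

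The differences were smaller among libraries with Ddx3y reads than among those without. What sets p21TKO replicate 1 apart from p21TKO replicates 2 and 3 cannot be told apart from its sex, since it is the 1 p21TKO library with those reads. Among libraries without Ddx3y reads, p21TKO replicates 2 and 3 exceeded DKO replicate 1 in all 10 genes, by 5.55 for S100a8, 4.8 for Retnlg, 4.36 for S100a9 and 3.83 for Lcn2 on the log2(FPKM + 1) scale. Among libraries with them, p21TKO replicate 1 differed from DKO replicates 2 and 3 by 0.43 for S100a8, 0.14 for Retnlg, 0.30 for S100a9 and -2.74 for Lcn2. The interaction of genotype and sex, fitted after the values were seen, was largest for Lcn2 (-6.57, limma adjusted p = 0.157) and S100a8 (-5.12, limma adjusted p = 0.104). None of the 7 tested genes passed it (limma adjusted p from 0.0845 to 0.834), and 0.0105% of all genes passed with a negative sign and 0.126% with a positive one. Before adjustment, 6 of the 7 were negative and below 0.05, where 3.28% of all genes were, the exception being Camp. The fit has 1 p21TKO library with Ddx3y reads and 1 DKO library without them. Retnlg, Chil3, Ngp and Camp had DKO means below 1 FPKM and passed the filter through p21TKO replicates 2 and 3, which lack Ddx3y reads. A negative sign was thus favoured by the filter for these genes. The count before adjustment therefore cannot be weighed against the share of all genes. With a sex term added to the main test, the difference of S100a8 was 2.99 and that of Lcn2 0.55, and no gene of the set was called (limma adjusted p from 0.646 to 0.917, with 4 of the 7 at an unadjusted p under 0.05).

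The distance between the high libraries varied among the 10 genes. p21TKO replicate 2 exceeded p21TKO replicate 3 for each of them, by a ratio of 1.78 for Retnlg (95% counting interval 1.58 to 2.0) and 2.35 for S100a8 (2.20 to 2.50). The ratio was 2.62 for S100a9 (2.46 to 2.79), 2.55 for Csf3r (1.93 to 3.39) and 3.11 for Cxcr2 (2.34 to 4.19). The ratio was 3.41 for Chil3 (2.94 to 3.97), 3.26 for Camp (2.18 to 4.98), 4.34 for Ngp (3.74 to 5.04) and 13.3 for Ltf (8.20 to 22.9). The intervals of Retnlg and S100a8 did not overlap those of Chil3, Ngp and Ltf, while the interval of Camp overlapped that of S100a8, and those of Cxcr2 and Csf3r overlapped those of Chil3 and Camp. The ratios therefore did not separate granule genes from receptors. These ratios compare 2 libraries and the intervals are exact binomial limits that cover counting error only, so they do not compare conditions.

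**Figure D3:**
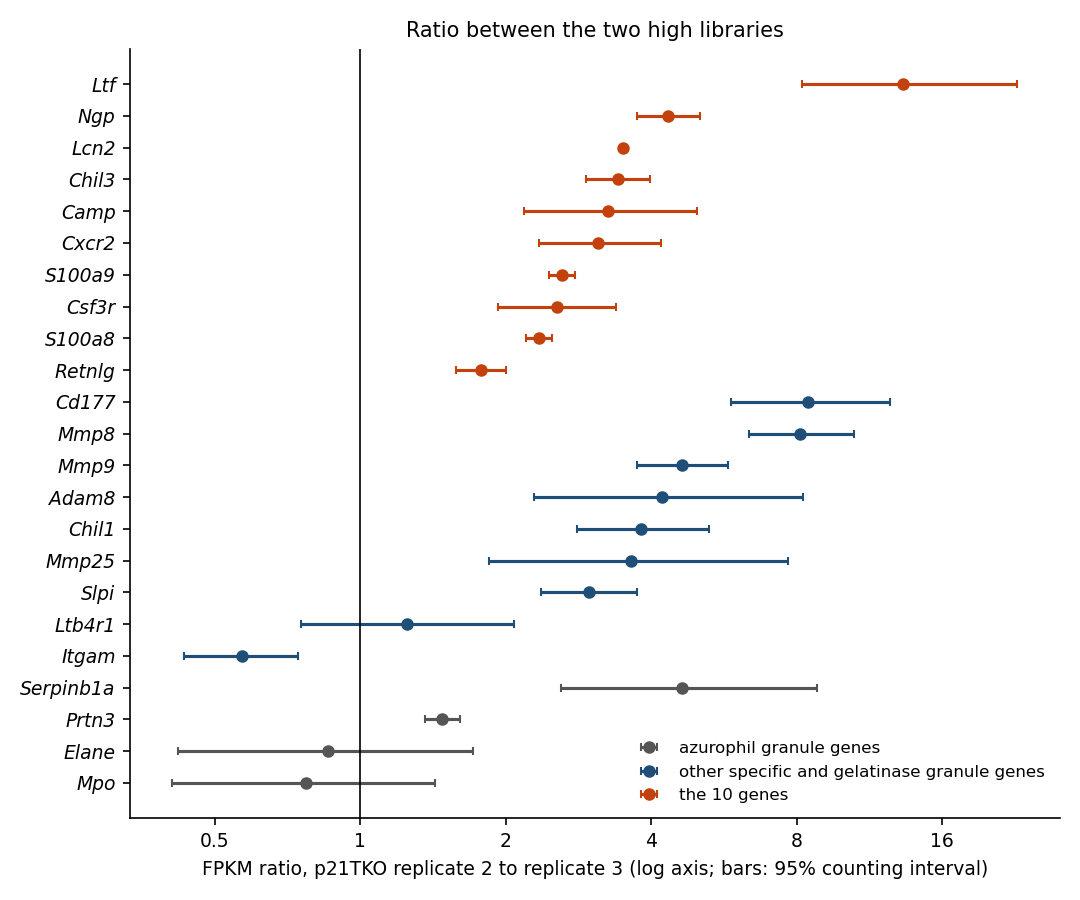
Ratio of FPKM in p21TKO replicate 2 to that in p21TKO replicate 3 on a log axis, with the 95% counting interval as a bar, for the 10 genes (orange), other granule-associated genes (blue) and azurophil granule genes (grey) with at least 10 reads in both libraries. The ratios of the 10 genes run from 1.78 for Retnlg to 13.3 for Ltf, and those of the 4 azurophil genes run from 0.772 for Mpo to 4.64 for Serpinb1a.

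Most other genes of specific and gelatinase granules were also highest in p21TKO replicates 2 and 3. Of 11 further genes linked to specific and gelatinase granules, 4 were expressed enough to test and 0 passed. In p21TKO replicates 2 and 3, 8 of the 11 were higher than in each other library, where 17.4% of tested genes were. Most of the 11 were below the filter that defines this share, so the count cannot be weighed against it. Mmp8, the neutrophil collagenase gene, had 5, 1 and 2 reads in the controls and 1, 517 and 75 reads in p21TKO, and Cd177, a surface and granule glycoprotein gene, had 0, 1 and 1 reads and 1, 236 and 33 reads. Their ratios between p21TKO replicates 2 and 3 were 8.13 (6.37 to 10.5) and 8.43 (5.84 to 12.5). Mmp9, the gelatinase gene, stood at 0.129, 0.341 and 0.0890 FPKM in the controls and 0.146, 5.22 and 1.13 FPKM in p21TKO. Slpi, a protease inhibitor gene that epithelia also express, was higher in every p21TKO library (0.662 ± 0.416 and 6.03 ± 3.67 FPKM, SD, n = 3 each) without passing (limma adjusted p = 0.255), and it was called without p21TKO replicate 1 (2.12, limma adjusted p = 0.0426). All 4 tested genes of this list had DKO means below 1 FPKM.

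Of 6 azurophil granule genes, 1 was tested, Prtn3, the proteinase 3 gene. It stood at 6.97, 4.56 and 1.66 FPKM in the controls and 1.04, 29.9 and 20.2 FPKM in p21TKO. Its log2 difference was 1.17 (SE 1.02, limma adjusted p = 0.696), and it was called without p21TKO replicate 1 (2.39, limma adjusted p = 0.0437). Its lowest library was p21TKO replicate 1 and its highest p21TKO replicate 2, as for Lcn2. The other azurophil protease genes were near 0, with Elane, the neutrophil elastase gene, at no more than 0.826 FPKM and Ctsg, the cathepsin G gene, at no more than 4 reads in any library. The ratio of p21TKO replicate 2 to replicate 3 was 1.48 for Prtn3 (1.36 to 1.61), with an interval that overlapped that of Retnlg and lay below those of the other 9. Mpo (0.772, 0.409 to 1.43) and Elane (0.857, 0.421 to 1.71) had intervals that include 1, and Serpinb1a, an inhibitor gene of these proteases, had a ratio of 4.64 (2.60 to 8.80).

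Surface and oxidase genes of neutrophils, many of which monocytes and macrophages share, were mostly highest in those libraries as well (13 of the 17 surface genes found). The share of tested genes with that order was 17.4%. It covers only genes above the filter, which many genes of both lists did not reach. Of 18 surface and receptor genes, 17 were in the table and 7 were tested, with none called (limma adjusted p from 0.523 to 0.573). Of these 7, 5 had DKO means below 1 FPKM and passed the filter through the high p21TKO libraries, so their direction was fixed by it. Stfa2l1 and Stfa2, stefin A genes of a family of close copies whose reads are uncertain, had differences of 1.75 and 1.65. Stfa2 had 0 reads in 4 libraries and 55 and 52 reads in p21TKO replicates 2 and 3. Without p21TKO replicate 1, 8 of 8 tested surface genes were called, where 2.43% of all genes were called higher, and 6 of the 8 had passed the filter in that way. Fcgr3 and Fcgr4, Fc receptor genes with DKO means of 1.82 and 1.72 FPKM, were the other 2 (limma adjusted p = 0.0138 for each). Cxcr4, the receptor that retains neutrophils in the marrow, was at 0.299 to 0.506 FPKM in the controls and 0.343 to 0.819 FPKM in p21TKO. Of the 6 subunit genes of the NADPH oxidase, which makes superoxide, 3 were tested and 0 called, and all 6 were higher in p21TKO replicates 2 and 3 than in the other libraries. Cyba, a membrane subunit, stood at 3.88 ± 1.09 and 8.96 ± 6.16 FPKM (SD, n = 3 each, limma adjusted p = 0.611), and it was the 1 oxidase gene of 4 tested that was called without p21TKO replicate 1 (1.42, limma adjusted p = 0.0437).

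Of 14 ligand and cytokine genes, 5 were tested, 4 with differences above 0, and 0 were called (median 0.61). Cxcl1, which encodes a ligand of CXCR2, stood at 6.46, 140.2 and 22.6 FPKM in the controls and 42.1, 79.2 and 98.5 FPKM in p21TKO, so its highest library was DKO replicate 2. Csf3, the G-CSF gene, had 0 reads in all 6 libraries, and Cxcl2 had at most 16. Il1b, the interleukin 1 beta gene, stood at 0.306, 1.02 and 1.01 FPKM in the controls and 0.867, 2.60 and 3.55 FPKM in p21TKO (limma adjusted p = 0.523), and it was the 1 ligand gene called without p21TKO replicate 1 (1.21, limma adjusted p = 0.0499). Pf4, a platelet chemokine gene, was higher in every p21TKO library (0.729 ± 0.348 and 1.67 ± 0.699 FPKM, SD, n = 3 each, limma adjusted p = 0.523). Il1b and Pf4 had DKO means below 1 FPKM, so the p21TKO libraries carried them past the filter and their direction was set by it.

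Among 7 receptor and adaptor genes described for calprotectin, 5 were tested and 0 called. Cd14, the lipopolysaccharide co-receptor gene, was higher in all p21TKO libraries, at 1.03, 0.724 and 0.572 FPKM in the controls and 1.13, 10.6 and 12.9 FPKM in p21TKO (limma adjusted p = 0.523). Without p21TKO replicate 1, Cd14 (2.85, limma adjusted p = 0.00319) and Cd36, a scavenger receptor gene (1.96, limma adjusted p = 0.0113), were called. Cd14 had a DKO mean of 0.776 FPKM, so the p21TKO libraries carried it past the filter and its direction was set by it. Among 16 other genes with S100 names, 7 were tested, 5 with differences above 0, where 50.2% of all tested genes were, and 0 called (median 0.23). These counts include S100pbp, the gene of an S100-binding protein and not of an S100 protein, which was tested and differed by 0.02. S100a6 stood at 1.28 ± 0.241 FPKM in the controls and 5.80 ± 4.40 FPKM in p21TKO, and S100a11 at 8.0 ± 2.99 and 18.4 ± 3.74 FPKM (SD, n = 3 each). The groups did not overlap for either gene, yet neither passed (limma adjusted p = 0.523 and 0.515). Of the 7, S100a6 alone was called without p21TKO replicate 1 (1.84, limma adjusted p = 0.0289). S100a1, the highest of these 16 per length on average, had means of 165 and 161 FPKM. Of the relatives of single genes in the set, Retn, Chil4, Chit1, Csf3 and Lcn3 had 0 reads throughout, and Trf, the transferrin gene related to Ltf, differed by 0.21 (limma adjusted p = 0.915).

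Of 10 transcription factor genes of granulocyte development, 6 were tested, 3 with differences above 0 and 3 below, and 0 were called. Cebpe, a factor needed for specific granules, stood at 4.86, 6.40 and 5.4 FPKM in the controls and 5.95, 2.56 and 0.655 FPKM in p21TKO, so it was lowest in the libraries where the granule genes were highest (limma adjusted p = 0.563). Cebpa, which hepatocytes also express, was at 168 ± 41.3 and 103 ± 65.7 FPKM (SD, n = 3 each, limma adjusted p = 0.580). Spi1, the PU.1 gene, stood at 1.81, 1.38 and 1.04 FPKM in the controls and 0.881, 4.40 and 3.70 FPKM in p21TKO (limma adjusted p = 0.614), and it was the 1 factor gene called without p21TKO replicate 1 (1.08, limma adjusted p = 0.0330). Gfi1 had at most 3 reads in any library. Of 5 genes for uptake of lipocalin-2, lactoferrin and siderophores, 2 were tested and 0 called, with Lrp1 at 39.1 ± 6.47 and 30.2 ± 11.2 FPKM (SD, n = 3 each).

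Markers of other cells moved with the 10 genes in part. In bulk RNA, more cells of a type and more RNA per cell cannot be told apart. The 12 Kupffer cell markers, all tested and none called, summed to 63.3 to 144 FPKM in the controls and to 54.4, 400.3 and 219 FPKM in p21TKO replicates 1 to 3. Clec4f, a defining Kupffer cell receptor gene, stood at 8.65 to 20.1 FPKM in the controls and 7.32, 40.1 and 11.2 FPKM in p21TKO, so replicate 3 was within the DKO range. The 8 endothelial markers, none called, summed to 11.3 to 19.8 FPKM in the controls and to 7.89, 69.5 and 35.1 FPKM in p21TKO. The acute phase genes, 17 tested and none called, summed to 14446 to 16615 FPKM in the controls and to 9498, 73361 and 52592 FPKM in p21TKO. Without p21TKO replicate 1, as for the 10 genes, some of these markers were called higher: 7 of 17 acute phase genes, 3 of 8 endothelial markers (Pecam1, Lyve1 and Cdh5) and 2 of 12 Kupffer cell markers (Marco and C1qc). Lyve1 had a DKO mean of 0.704 FPKM, so the p21TKO libraries carried it past the filter. Without p21TKO replicate 1, 2.43% of all genes were called higher and 2.85% lower. Orm1 then differed by 2.60 (limma adjusted p = 0.0129), Orm2 by 3.96 (limma adjusted p = 0.0208) and Marco by 3.58 (limma adjusted p = 0.0129). The part of these cells in the values of the 10 genes was not tested. The 9 genes other than Lcn2 summed to 10.3 to 28.7 FPKM in the controls and to 24.9, 561 and 224 FPKM in p21TKO.

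Red cell and lymphocyte markers had other orders of libraries, and monocyte markers were mixed. The 9 red cell markers found summed to 125, 672 and 249 FPKM in the controls and 858, 599.9 and 24.1 FPKM in p21TKO, so the red cell sum was lowest in p21TKO replicate 3, where the neutrophil genes were high. Among the other 4 libraries, DKO replicate 2 and p21TKO replicate 1 were above DKO replicates 1 and 3 for 7 of the 9 red cell markers and for 4 of the 10 neutrophil genes, where 32.3% of tested genes had that order, so the share of the 10 was near the background. This background leaves out genes below the filter, such as Ltf, Cxcr2 and Csf3r. The 12 T, B and NK cell markers, all too low to test, summed to 2.55 to 4.31 FPKM in the controls and to 3.09, 1.39 and 0.633 FPKM in p21TKO. The 8 monocyte markers summed to 108 to 183 FPKM in the controls and to 89.8, 275 and 189.7 FPKM in p21TKO, mostly Fn1, which hepatocytes express. Of these 8, 5 were higher in p21TKO replicates 2 and 3 than in each other library, an order shared by 17.4% of tested genes. Only 3 of the 8 were tested, so the count cannot be weighed against this share. Among the 5 was Lyz2, the lysozyme gene that neutrophils share, at 66.2 and 26.2 FPKM against 8.87 to 22.6 FPKM. Ifitm6 was the 1 of 3 tested that was called without p21TKO replicate 1 (2.86, limma adjusted p = 0.0232). Its DKO mean was 0.225 FPKM, so the p21TKO libraries carried it past the filter and its direction was set by it. Ccr2, a defining receptor gene of monocytes, was at most 0.238 FPKM. Mki67, a gene of dividing cells such as granulocyte precursors, stood at 0.0520 and 0.0441 FPKM in p21TKO replicates 2 and 3 and at 0.0268 to 0.124 FPKM in the other libraries. Top2a, another such gene, stood at 0.0387 and 0.0164 FPKM against 0.0150 to 0.109 FPKM. Of 10 cell division genes, 3 were tested and 0 called, 1 with a difference above 0 and 2 below. The 1 above 0 was Tuba1b, which was higher in every p21TKO library (limma adjusted p = 0.515). It stood at 7.75, 8.68 and 7.27 FPKM in the controls and 11.3, 12.4 and 12.7 FPKM in p21TKO.

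**Figure D4:**
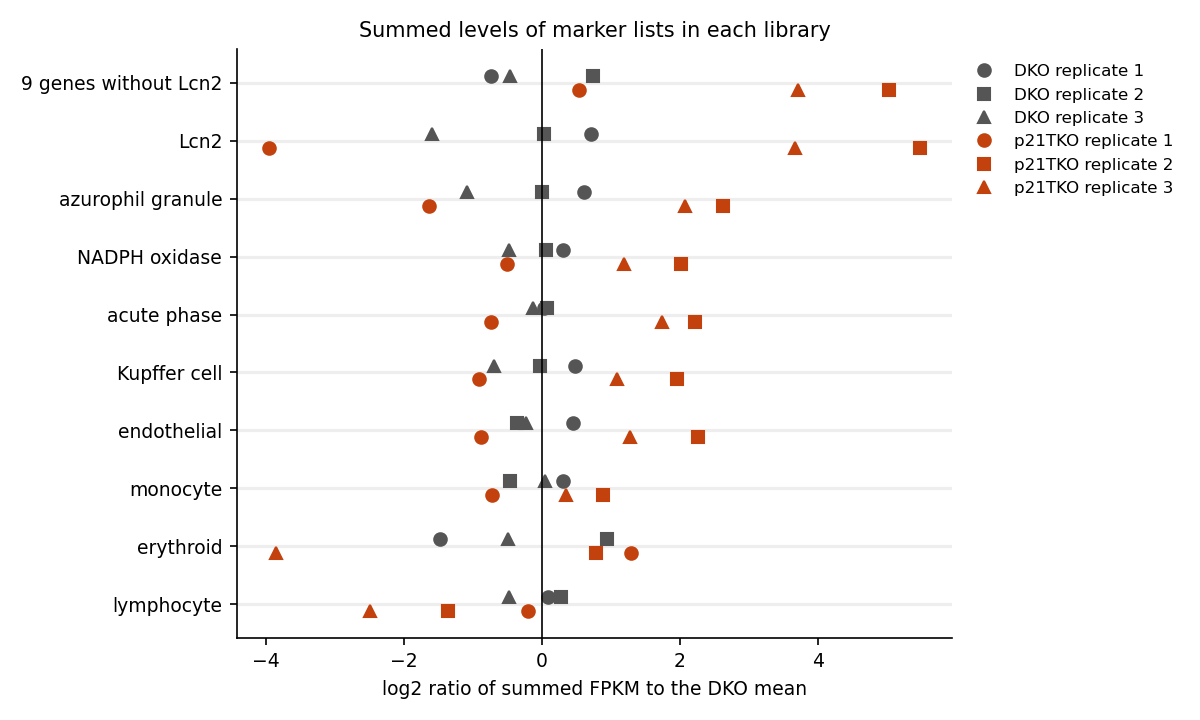
Log2 ratio of the summed FPKM of each list to its DKO mean, for the 3 DKO libraries (grey) and the 3 p21TKO libraries (orange), with a symbol per replicate. p21TKO replicates 2 and 3 are to the right of all other libraries for the neutrophil, azurophil, oxidase, acute phase, Kupffer cell, endothelial and monocyte rows, while the erythroid row has p21TKO replicate 3 at the far left.

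The genes with the profile most like that of the set were sought among all genes with a mean of at least 1 FPKM. Likeness was the root mean square difference, over the 6 libraries, between the centred log2(FPKM + 1) profile of a gene and the median centred profile of the 10 genes. That median profile was -0.73, -0.72 and -1.43 in DKO replicates 1 to 3 and -0.82, 3.15 and 1.40 in p21TKO replicates 1 to 3. The nearest genes were Ifitm6 (0.30), Gm20400 (0.46), Stfa2l1 (0.50), Fcgr3 (0.54), Plpp1 (0.56), Mmp7 (0.57), Mmp8 (0.58) and Aqp1 (0.58). Ifitm6, Gm20400, Stfa2l1, Mmp7 and Mmp8 were below 1 FPKM in every library except p21TKO replicates 2 and 3. They entered the search through those libraries, so the filter favoured this profile among genes of low level. Ifitm6, an interferon-induced transmembrane gene of myeloid cells, stood at 0.322, 0.205 and 0.149 FPKM in the controls and 0.342, 14.4 and 4.12 FPKM in p21TKO. Aqp1, a water channel gene of endothelium and bile ducts, had the highest level of the 8, at 4.41 to 9.68 FPKM in the controls and 5.05, 57.7 and 26.2 FPKM in p21TKO. Gm20400 is annotated as antisense, and without known strandedness its reads cannot be told from those of a partner. Within the set, Ngp (0.22) and Chil3 (0.29) were nearest to the median profile and Lcn2 (1.71) was farthest.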

How the data were processed

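PolyA RNA of 6 mouse liver libraries was sequenced, 3 per genotype. The authors deposited 1 FPKM value per gene and library. The submitters' processing notes name HISAT2 2.0.5, DESeq2 1.20.0, featureCounts 1.5.0-p3, CASAVA 1.8 and fastp, without roles. The same notes name human builds while gene identifiers are mouse, so the build is not settled. Positions and exon lengths are from GENCODE M21 (GRCm38), matched by identifier for 55480 genes (93 unmatched). In each library, 99.3% of the values above 0 became whole reads (tolerance 0.02) when multiplied by exon length.

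After a filter at a mean of 1 FPKM, limma 3.58.1 in R 4.3.3 compared the groups on log2(FPKM + 1), two-sided and with a mean-variance trend, using Benjamini-Hochberg adjustment and a threshold of 0.05. The fit was tested on simulated data. Upstream sequences are RefSeq's (GRCm38.p6), matched by symbol for all 10 genes. Python 3.11.15, scipy 1.17.1 and matplotlib 3.10.9 were used.

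The genes and lists were chosen with earlier results of these data known. Named genes are the 10, up to 4 per list with the smallest p, the 8 nearest profiles, the targeted and sex-linked genes, and others where a list is given whole, picked after their values were seen. Alternatives were the pseudocount, filter, scaling, trend, replicate block, sex term, voom on recovered reads and leaving out libraries.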

Additional observations from a re-analysis of the deposited data

Results flagged for a closer look

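For 3 of the 10 genes, the libraries without Y-linked reads and those with them moved in opposite directions between the genotypes. Among libraries without such reads, both p21TKO libraries were above the DKO library, and among those with them the p21TKO library was below both DKO libraries. On the log2(FPKM + 1) scale the differences were 3.83 and -2.74 for Lcn2, in that order. They were 1.26 and -0.26 for Cxcr2 and 0.99 and -0.43 for Csf3r. The interaction of genotype and sex did not pass for Lcn2 (limma adjusted p = 0.157). For Cxcr2 and Csf3r, which were below the filter, the difference between the sexes was not tested. The with-Y comparison rests on 1 p21TKO library and the without-Y comparison on 1 DKO library.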

How the results depend on the processing

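No gene of the set was called with a pseudocount of 0.1 or 0.5, no filter, a mean of at least 5 FPKM, other scaling, no mitochondrial genes in the total, no trend, a sex term or voom. When each library was left out in turn, the number of the 10 genes called ran from 0 to 7 and the number of other list genes called from 0 to 29, both highest without p21TKO replicate 1. The median difference over the 10 genes (2.24) ran from 1.02, without p21TKO replicate 2, to 3.48, without p21TKO replicate 1. Over the settings that kept all libraries it ran from 1.37, with a sex term, to 3.67, with voom. It was 3.37 in the 3 libraries lacking Ddx3y reads and 0.20 in the 3 that had them, where the differences of Lcn2 (-2.74), Cxcr2 (-0.26) and Csf3r (-0.43) turned. The cause was not tested. Of 190 values over genes and settings, 187 were above 0. Over all genes, 7 were called in the test as reported, 506 without p21TKO replicate 1 (233 higher and 273 lower), 10 with a pseudocount of 0.1, 9 with a sex term, 4 at a mean of at least 5 FPKM, 2 with voom and 1 without a filter. It was 4, 3 and 1 without DKO replicates 1, 2 and 3, and 2 and 3 without p21TKO replicates 2 and 3.

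Same-numbered libraries did not deviate together (correlations of -0.44, -0.49 and -0.07). With 3 libraries per group that also differ in Ddx3y reads, such correlations cannot exclude pairing, so whether the numbers pair the samples is unknown. With the replicate block, 0 of the 10 genes and 0 of all genes were called (6 of the 7 tested at an unadjusted p under 0.05), and the median difference was 2.24. Depth limits Chil3, Camp and Ltf most, with at most 8 reads per DKO library.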

Other observations

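The ratio between the high libraries varied widely among the 17 acute phase genes, 6 of which lay within the range of the 10 neutrophil genes. The ratio of p21TKO replicate 2 to p21TKO replicate 3 was 22.9 for Saa1 (95% counting interval 22.5 to 23.3) and 36.7 for Saa2 (35.7 to 37.7), genes so alike that their reads may be divided. It was 2.76 for Hp, the haptoglobin gene (2.75 to 2.77), and 0.701 for Fgb, the fibrinogen beta chain gene (0.698 to 0.705). For comparison it was 3.50 for Lcn2 (3.46 to 3.55). Hamp, the hepcidin gene, was lower in replicate 2 (0.182, 0.179 to 0.185). Among the surface and granule genes, Itgam, an integrin gene of neutrophils and macrophages, was lower in replicate 2 (0.569, 0.432 to 0.743), unlike all 10 genes of the set. These are values of 2 libraries, with intervals for counting error only.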
